A study of Mus musculus with 13 samples.

Results

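The genes described here store, import and export cellular iron or guard cells against ferroptosis, an iron-dependent death by lipid peroxidation. They were Fth1, Ftl1, Tfrc, Slc11a2, Slc40a1, Aco1, Ireb2, Ncoa4, Gpx4 and Aifm2, taken by gene symbol through the mouse annotation, and all 10 were found among the 22656 genes of the table. All 10 averaged 10 normalised counts or more and so stood among the 12403 genes tested. The samples were 13 libraries of B16F10-TR-shApoe cells, a mouse melanoma line whose name denotes a short hairpin RNA against Apoe, which every library carried. The cells (100000 per mouse) had been injected into the tail vein of knock-in mice whose genotype was APOE2 (8 libraries) or APOE3 (5 libraries), the numbers of mice given for the study. At day 15 the lungs were digested, and cells negative for CD45 and for a dead-cell stain and positive for GFP were sorted. The host genotype was therefore the difference between the groups, and the tumour cells were of 1 line, with no line without the hairpin for comparison. RNA was read with a 3′ end method, in which each transcript gives reads next to its poly(A) tail, so the values carry no length correction and levels are compared between libraries, not between genes.

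Iron enters most cells bound to transferrin, whose receptor is encoded by Tfrc, and crosses the endosomal membrane through the transporter encoded by Slc11a2. Surplus iron is held inside ferritin, a shell of heavy (Fth1) and light (Ftl1) chains that is delivered to lysosomes by the receptor encoded by Ncoa4, and it leaves the cell through ferroportin (Slc40a1). The iron regulatory proteins encoded by Aco1 and Ireb2 bind hairpins called iron responsive elements when iron is scarce. A hairpin in a 5′ untranslated region then blocks translation, and hairpins in a 3′ untranslated region protect the messenger RNA from decay. Labile iron promotes peroxidation of membrane lipids, and the selenoprotein encoded by Gpx4 and the ubiquinone reductase encoded by Aifm2 (also called FSP1) guard against it. Because much of this control acts on translation and on protein turnover, messenger RNA levels show only part of it.

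The hairpins that tie some of these genes together could be read from the annotated transcripts (GENCODE M21 on GRCm38, the assembly also called mm10). The search took an unpaired C, 5 base pairs, the loop CAGTGN (N is any base) and the 5 partner bases, allowing G with U pairs, on the transcript strand. It found a match in 4 of the 10 genes, 3 of them in a 5′ untranslated region and 1, Tfrc, in its 3′ untranslated region with 4 matches. The sites are shown because they are the sequence feature that Fth1, Ftl1, Slc40a1 and Tfrc share. They are written 5′ to 3′ with the loop in capitals, with neighbouring bases on both sides.
Fth1, chr19:9982733-9982760, plus strand: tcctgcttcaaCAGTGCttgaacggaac
Ftl1, chr7:45459779-45459806, minus strand: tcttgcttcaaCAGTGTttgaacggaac
Slc40a1, chr1:45925465-45925492, minus strand: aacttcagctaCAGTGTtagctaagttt
Tfrc, chr16:32631220-32631247, plus strand: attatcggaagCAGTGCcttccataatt
Tfrc, chr16:32631599-32631626, plus strand: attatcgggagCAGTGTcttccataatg
Tfrc, chr16:32631664-32631691, plus strand: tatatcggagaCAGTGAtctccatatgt
Tfrc, chr16:32631711-32631738, plus strand: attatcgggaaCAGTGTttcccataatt

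The same letters were found in the 5′ untranslated region of 31 of 21866 protein-coding genes (0.142%) and in the 3′ untranslated region of 129 (0.590%). Among the 11183 protein-coding genes tested the shares were 0.215% and 0.814%. Slc11a2, of which an isoform is known to carry such an element, held no match to this strict pattern, and neither did Aco1, Ireb2, Ncoa4, Gpx4 or Aifm2. The hairpin of Fth1 was present in 4 of its 5 coding transcripts, that of Ftl1 in 1 of 2, that of Slc40a1 in 1 of 4 and those of Tfrc in 1 of 3. Gpx4 carries a different kind of signal, an in-frame TGA that is read as selenocysteine in the active site, and 1 such codon was found before the stop codon in each of its 3 coding transcripts. It is shown in capitals with the bases around it.
Gpx4, chr10:80054725-80054751, plus strand: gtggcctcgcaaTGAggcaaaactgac

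Recovered read totals ranged from 7284487 to 13039989 in the APOE2 libraries and from 7080308 to 8801867 in the APOE3 libraries. All 8 melanoma markers had reads in all 13 libraries. Their summed level was 302983 to 462007 normalised counts in APOE2 and 220387 to 334301 in APOE3. The largest marker in this sum, Dct, had means of 232522 in APOE2 and 150389 in APOE3. Mitf (8047 and 9216), Sox10 (4540 and 5225) and Tyr (2312 and 2336) had the lower mean in APOE2. Of these markers 0 of 8 passed the test (limma, adjusted p under 0.05). Their log2 fold changes (APOE2 minus APOE3) were positive in 5 and negative in 3, with a median of 0.045. Some markers of other cells passed the test as lower in APOE2 (limma, adjusted p under 0.05), against 0.379% of all genes tested that did. The lung epithelium sum was 648 to 4190 in APOE2 against 3496 to 21959 in APOE3, with 7 of its 12 tested markers lower in APOE2. The median log2 fold change (APOE2 minus APOE3) was -2.24, with 11 negative and 1 positive. Scgb1a1 (means of 157 in APOE2 and 29.5 in APOE3) and Scgb3a2 (29.8 and 0) had the higher mean in APOE2. Scgb3a2 was at 0 reads in 10 libraries. The endothelium sum was 801 to 1204 against 1088 to 2322 (2 of 14 markers lower; all 14 had negative log2 fold changes, with a median of -1.48, and 10 had an unadjusted p under 0.05). The fibroblast and smooth muscle sum was 286 to 840 against 381 to 2233 (1 of 8 lower), with all 8 log2 fold changes negative, a median of -1.20 and 4 unadjusted p under 0.05. The sort on CD45 removes leukocytes, whose marker sum was 508 to 2572 against 2145 to 12423 (2 of 8 lower), of which Lyz2, also made by alveolar type 2 cells, had means of 1162 and 5288. Of the 8 tested, 7 log2 fold changes were negative and 1 was positive, with a median of -0.68. S100a8 (122 and 118), S100a9 (72.2 and 57.2) and Itgam (8.27 and 4.75) had the higher mean in APOE2. In such bulk samples fewer cells of a type and less RNA per cell cannot be told apart. For macrophages that recycle iron the sums were 3.68 to 60.7 and 5.20 to 30.1, no marker was abundant enough to be tested, and Siglecf and C1qc were at 0 reads in 11 and 10 libraries. Erythroid sums were 40.6 to 189 and 23.2 to 220, with Alas2 at 0 reads in 10 libraries.

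None of the 10 genes differed between the host genotypes at an adjusted p of 0.05 (limma on log2(normalised count + 1), Benjamini-Hochberg over all 12403 genes, two-sided). Across all genes tested, 98 passed (0.790%), and at that share a count of 0 among 10 genes is near the background. At an unadjusted p of 0.05, 2 of the 10 passed, Ftl1 and Gpx4, both with the higher mean in APOE2, against 14.2% of all genes tested. The groups overlapped in all 10 genes, while 0.984% of all genes had groups that did not overlap. The log2 fold change (APOE2 minus APOE3) was positive in 7 genes and negative in 3, with a median of 0.091 beside 0.000365 over all genes tested. No member passed in any of 28 alternative fits. In both edgeR and DESeq2 on recovered reads 0 members passed, and 1, Ftl1, had an unadjusted p under 0.05.

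**Figure D1:**
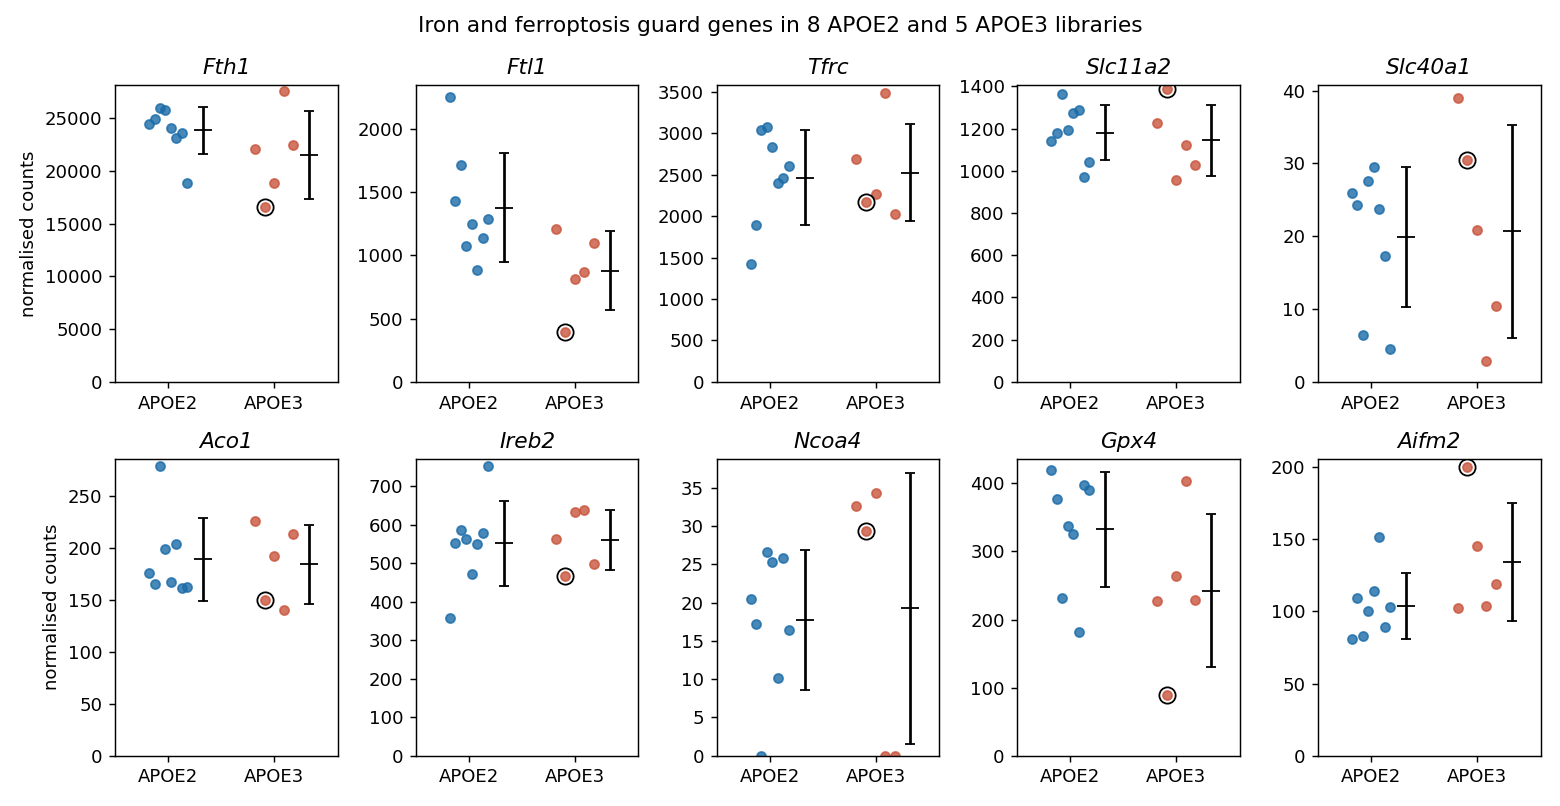
Normalised counts (y axes, each from 0) of the 10 genes in every library, with APOE2 (8 points) and APOE3 (5 points) side by side and the mean ± SD as bars; the circled point is APOE3 replicate 2. The groups overlap in every panel, Fth1, Ftl1 and Gpx4 have their lowest point in the circled library, and Ncoa4 is at 0 in 3 libraries.

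Fth1, the ferritin heavy chain that oxidises iron on entry, had the lowest coefficient of variation of the 10 among APOE2 libraries, 9.40%. The gene spans chr19:9980598-9985098 (plus strand). The APOE2 libraries held 18872 to 25971 normalised counts with a median of 24251, and the APOE3 libraries held 22067, 16596, 18814, 27580 and 22477. The highest and the lowest of the 13 libraries were both APOE3, so the APOE2 values lay inside the APOE3 range. Means were 23839 ± 2241 (SD, n = 8) and 21507 ± 4169 (SD, n = 5). The log2 fold change was 0.16 (SE 0.12, 95% interval -0.094 to 0.42; limma adjusted p = 0.583).

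Ftl1, the ferritin light chain that promotes mineralisation of the stored iron, showed the smallest p of the 10. It lies at chr7:45457944-45459884 on the minus strand. In APOE2 it held 886 to 2256 normalised counts with a median of 1268, and the APOE3 libraries held 1209, 398, 817, 870 and 1100. All 8 APOE2 libraries were above the APOE3 median, 5 were above the highest APOE3 library, and 3 APOE3 libraries were below the lowest APOE2 library. Means were 1379 ± 432 (SD, n = 8) and 879 ± 314 (SD, n = 5), a 1.61-fold difference computed from the log2 values with a 95% interval of 1.18 to 2.20. Its log2 fold change of 0.69 (SE 0.22) had an unadjusted p of 0.00409 and an adjusted p of 0.143 in limma, and an exact two-sided permutation test of this gene alone over 1287 splits gave p = 0.0241 (the smallest possible is 0.000777). Without APOE3 replicate 2, its lowest library, the log2 fold change was 0.43 (limma adjusted p = 0.303). With the mean log2 level of the endothelium markers as a covariate it was 0.45 (adjusted p = 0.936), and with the lung epithelium markers 0.70 (adjusted p = 0.583). The unadjusted limma p of Ftl1 was under 0.05 with the lung epithelium markers but not with the endothelium markers. Those marker levels differed between the groups, so these fits cannot tell genotype apart from marker level.

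The light chain has many processed copies in the mouse genome, and 12 annotated copies matched its last 300 bases at 95% identity or more over at least 75 bases. Of the 12, 8 had values here, and they took 0.211% to 3.68% of the summed counts of gene and matches in a library. Added to Ftl1, they left its log2 fold change at 0.69 (limma adjusted p = 0.138). The short match Gm22133, which had no value here, lies on exons of Ftl1 itself on the same strand, and Gm10252 overlaps them on the other. Fth1 had 1 such copy, Gm6977, which took 0.0544% to 0.186% of the sum.

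Within a library the ratio of both ferritin chains does not depend on the scaling factor. The log2 ratio of Fth1 to Ftl1 was 4.16 ± 0.41 (SD, n = 8, range 3.44 to 4.70) in APOE2 and 4.69 ± 0.49 (SD, n = 5, range 4.19 to 5.38) in APOE3. The highest ratio was that of APOE3 replicate 2, and the lowest was that of APOE2 replicate 1. The groups overlapped, and no test was made of this ratio.

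Ncoa4, the cargo receptor that takes ferritin to the lysosome, was sparse. It is annotated at chr14:32159865-32179855 on the plus strand. Levels in APOE2 were 0 to 26.6 normalised counts with a median of 18.8, and those in APOE3 were 32.7, 29.4, 34.3, 0 and 0. The 3 libraries with no read (APOE2 replicate 3, APOE3 replicates 4 and 5) allow levels up to 2.76, 2.82 and 3.47 normalised counts, the worth of 3 reads there. The 3 APOE3 libraries with reads were the 3 highest of the 13, and the lowest level, 0, occurred in both groups. Means were 17.8 ± 9.14 (SD, n = 8) and 19.3 ± 17.7 (SD, n = 5). The log2 fold change was 0.78 (SE 1.00, 95% interval -1.29 to 2.85; limma adjusted p = 0.771), opposite in sign to the difference of the means, and -0.11 in edgeR on recovered reads. The annotated gene Gm6768 matches all of the last 300 bases of Ncoa4, so reads from the ends of both cannot be told apart. The level of Ncoa4 is therefore uncertain in every library.

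Tfrc, the transferrin receptor, differed between the groups by less than the spread within them. The locus is chr16:32608920-32632794 (plus strand). APOE2 libraries ranged over 1420 to 3072 normalised counts with a median of 2531, while APOE3 libraries had 2687, 2174, 2274, 3482 and 2021. The lowest values were those of APOE2 replicates 1 and 2, the highest that of APOE3 replicate 4. Means were 2466 ± 570 (SD, n = 8) and 2528 ± 588 (SD, n = 5). The log2 difference of -0.047 had an SE of 0.16 (limma adjusted p = 0.930), and its 95% interval ran from -0.38 to 0.29, so larger changes in either direction lay outside it. The log2 ratio of Tfrc to Fth1, the pair that iron moves in opposite directions at the protein level, was -3.31 ± 0.41 (SD, n = 8) and -3.10 ± 0.22 (SD, n = 5), again with overlap.

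Slc11a2, the divalent metal transporter that releases iron from endosomes, had the narrowest interval of the 10. The gene spans chr15:100387898-100425072 (minus strand). The APOE2 libraries held 970 to 1363 normalised counts with a median of 1187, and the APOE3 libraries held 1228, 1385, 957, 1124 and 1025. APOE3 held both the highest and the lowest library. Means were 1181 ± 131 (SD, n = 8) and 1144 ± 169 (SD, n = 5), and the log2 fold change was 0.050 (SE 0.12, 95% interval -0.19 to 0.29; limma adjusted p = 0.892). An opposite-strand gene, Gm5475, overlaps its exons with a mean of 3.97 normalised counts.

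Slc40a1, the iron exporter ferroportin, was measured on few reads. It lies at chr1:45908068-45926523 on the minus strand. In APOE2 it held 4.58 to 29.6 normalised counts with a median of 24.0, and the APOE3 libraries held 39.0, 30.5, 20.8, 2.82 and 10.4. Its reads numbered 3 to 38 in a library, and APOE3 again held both the lowest and the highest level. Means were 19.9 ± 9.60 (SD, n = 8) and 20.7 ± 14.6 (SD, n = 5). The log2 fold change was 0.13 (SE 0.64; limma adjusted p = 0.950), and the interval of -1.20 to 1.46 includes a doubling, so a change of that size is not excluded.

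Neither gene of the iron regulatory proteins passed the test. Aco1, whose product is a cytosolic aconitase when it holds an iron-sulfur cluster and binds RNA when it does not, lies at chr4:40143081-40198338 on the plus strand. Levels in APOE2 were 161 to 279 normalised counts with a median of 171, and those in APOE3 were 225, 149, 191, 140 and 213. The highest library, APOE2 replicate 3, stood above an APOE3 group that otherwise covered the same range. Means were 189 ± 39.8 (SD, n = 8) and 184 ± 37.9 (SD, n = 5), with a log2 fold change of 0.040 (SE 0.19, 95% interval -0.36 to 0.44; limma adjusted p = 0.950). Ireb2, whose product is degraded when iron is plentiful, lies at chr9:54863789-54912530 on the plus strand. APOE2 libraries ranged over 358 to 751 normalised counts with a median of 558, while APOE3 libraries had 561, 465.5, 633, 637 and 497. All 5 APOE3 values fell inside the APOE2 range. Means were 551 ± 111 (SD, n = 8) and 559 ± 77.6 (SD, n = 5), with a log2 fold change of -0.036 (SE 0.15, 95% interval -0.35 to 0.28; limma adjusted p = 0.944). The log2 ratio of Ireb2 to Aco1 was 1.54 ± 0.39 (SD, n = 8) and 1.62 ± 0.38 (SD, n = 5).

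Gpx4, which reduces lipid hydroperoxides with glutathione, had the other unadjusted p under 0.05. It is annotated at chr10:80047166-80056439 on the plus strand. The APOE2 libraries held 182 to 420 normalised counts with a median of 357, and the APOE3 libraries held 228, 89.3, 264, 403 and 229. Of the APOE2 libraries 7 of 8 were above the APOE3 median, but APOE3 replicate 4 was the second highest of all. Means were 333 ± 84.6 (SD, n = 8) and 243 ± 112 (SD, n = 5), a 1.47-fold difference computed from the log2 values with a 95% interval of 1.01 to 2.14. Its log2 fold change of 0.55 (SE 0.26) had an unadjusted p of 0.0464 and an adjusted p of 0.344 in limma, and the exact permutation test gave p = 0.113. Without APOE3 replicate 2 the log2 fold change was 0.23 (limma adjusted p = 0.693). With the lung epithelium or endothelium markers as a covariate it was 0.93 or 1.02 (limma adjusted p = 0.505 and 0.887). In both covariate fits its unadjusted p was under 0.05, as for 979 and 682 of the 12403 genes tested. Those marker levels differed between the groups, so these fits cannot tell genotype apart from marker level.

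The value of Gpx4 also depends on a copy, Gpx4-ps2, that matches 99.667% of its last 300 bases. This copy held a mean of 61.9 normalised counts beside 298 for Gpx4, and it took 11.8% to 37.8% of their sum in a library. The split of reads between the gene and its copy is therefore uncertain. Added together, they gave a log2 fold change of 0.47 (limma adjusted p = 0.342).

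Aifm2, which keeps ubiquinone reduced so that it can trap lipid radicals, had the largest negative log2 fold change of the 10. The locus is chr10:61715263-61739260 (plus strand). In APOE2 it held 81.1 to 151 normalised counts with a median of 102, and the APOE3 libraries held 102, 200, 146, 104 and 119. Of the APOE2 libraries 4 were below the lowest APOE3 library, and 1 was above the APOE3 median. Means were 104 ± 22.6 (SD, n = 8) and 134 ± 40.8 (SD, n = 5). The log2 fold change was -0.35 (SE 0.24, 95% interval -0.83 to 0.14; limma adjusted p = 0.528), and the exact permutation test gave p = 0.0995. Without APOE3 replicate 2, the highest library, it was -0.19 (limma adjusted p = 0.802). Its exons overlap H2afy2 on the opposite strand, which had a mean of 1.56 normalised counts.

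**Figure D2:**
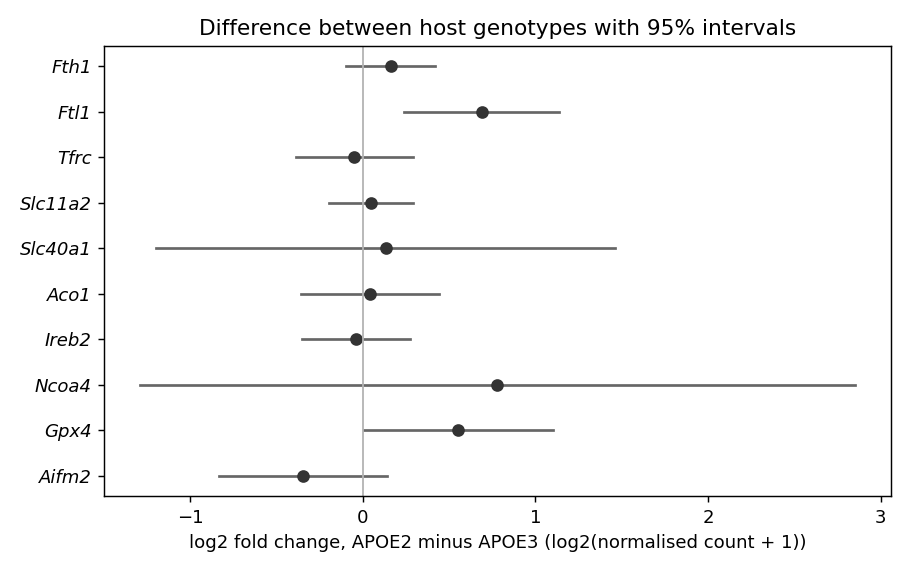
Log2 fold change (x axis, APOE2 minus APOE3, on log2(normalised count + 1)) of the 10 genes with 95% intervals from limma, unadjusted for the number of genes. The intervals of Ftl1 (0.24 to 1.14) and Gpx4 (0.0097 to 1.10) lie above 0, the other 8 span 0, and those of Ncoa4 and Slc40a1 are the widest.

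Some libraries were extreme in several of these genes. APOE3 replicate 2 was the lowest of all 13 libraries in Fth1, Ftl1 and Gpx4 and the highest in Slc11a2 and Aifm2. In APOE2 replicate 1 Tfrc, Ireb2 and Aifm2 were the lowest of 13, and Ftl1 and Gpx4 the highest. APOE3 replicate 4 was highest in Fth1 and Tfrc and lowest in Slc40a1 and Aco1. APOE3 replicate 2 also had the largest share of counts from the ribosomal-RNA-like gene Gm42418, 3.74%, against 0.662% to 2.17% in APOE2 and 1.11% to 3.03% in the other APOE3 libraries. Its share of mitochondrial messenger RNA was 5.71%, within the APOE3 range of 4.30% to 6.29% and above the APOE2 range of 4.22% to 5.04%. The part of these measures in the results was not tested.

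**Figure D3:**
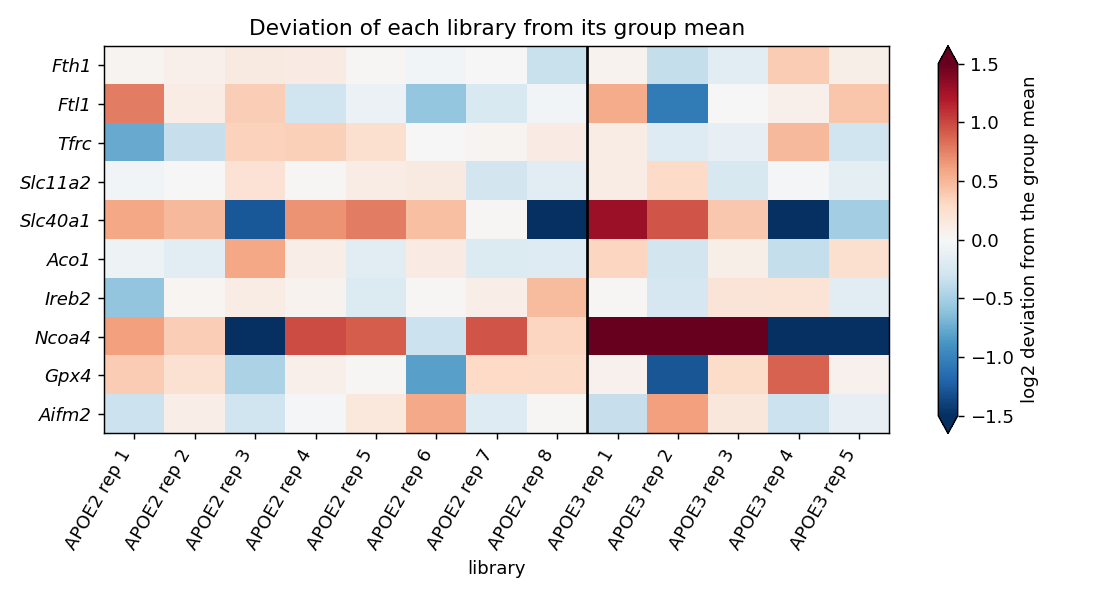
Log2 deviation of each library from the mean of its own group (colour) for the 10 genes (rows) in 8 APOE2 and 5 APOE3 libraries (columns, divided by the line); colours saturate at the ends of the scale. Within APOE3, replicate 2 is low in Ftl1 and Gpx4 and high in Aifm2, and Ncoa4 and Slc40a1 vary most from library to library.

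After removal of the group means, 45 pairs of the genes were compared over the 13 libraries. Ftl1 and Aifm2 moved in opposite directions, with Pearson's r = -0.84 (permutation p = 0.00035, 0.0157 after Benjamini-Hochberg adjustment over the pairs) and Spearman's rho = -0.74 (permutation p = 0.00491, adjusted 0.0961). Leaving out APOE3 replicate 2 and APOE2 replicate 1, the libraries farthest from the median of Ftl1, gave r = -0.72. The adjusted value for rho missed 0.05, so the relation holds for the values and not for their ranks after adjustment. No other pair passed after adjustment. Slc11a2 and Gpx4 had r = -0.69 (permutation p = 0.00796, adjusted 0.0895) and the largest rho of the pairs in size, -0.81 (permutation p = 0.00146, adjusted 0.0657), with r = -0.56 without APOE2 replicate 7 and APOE3 replicate 2. The sparse genes Slc40a1 and Ncoa4 had r = 0.75 (permutation p = 0.00552, adjusted 0.0895) and rho = 0.70 (permutation p = 0.0102, adjusted 0.115), with r = 0.89 without APOE3 replicate 4 and APOE2 replicate 8. The pair of guards, Gpx4 and Aifm2, had r = -0.71 (permutation p = 0.00763, adjusted 0.0895) and rho = -0.49 (permutation p = 0.093, adjusted 0.451). Without APOE3 replicate 2 and APOE2 replicate 6 its r was -0.087, so it rested on those libraries.

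Among all genes tested, those whose deviations from the group means most resembled Fth1 over the 13 libraries were Fbxw4 (Pearson's r = 0.90), Ssu72 (r = 0.89) and Cdca7 (r = 0.88). For Tfrc they were Tinagl1 (r = 0.84), Unc80 (r = 0.84, a sparse gene with a mean of 15.4 normalised counts) and Sez6 (r = 0.80). For Gpx4 they were Rpl10 (r = 0.93), Dnajb9 (r = 0.93) and Zfp397 (r = 0.91). These are descriptions of the nearest of many genes, and the libraries share depth and composition.

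The wider pathway was described with 132 other genes of iron and ferroptosis biology, of which 112 were tested. Fdx1 passed with the higher level in APOE2 and Scd1 with the lower (limma, adjusted p under 0.05; 0.411% of all genes tested passed as higher and 0.379% as lower). At an unadjusted p of 0.05 there were 14, 7 in each direction, against 14.2% of all genes tested. The log2 fold changes were positive in 48 and negative in 64 genes with a median of -0.085. Fdx1 encodes mitochondrial ferredoxin, which passes electrons to iron-sulfur cluster assembly and to steroid and lipoyl synthesis. It held 1070 to 1606 normalised counts in APOE2 (median 1323) and 1033, 930, 971, 884 and 649 in APOE3, so its groups did not overlap. Means were 1337 ± 209 (SD, n = 8) and 893 ± 147 (SD, n = 5), with a log2 fold change of 0.58 (SE 0.13; limma adjusted p = 0.0365). Scd1 encodes the desaturase that makes monounsaturated fatty acids, which are hard to peroxidise. It held 689 to 1057 normalised counts in APOE2 (median 865) and 1198, 1538, 1747, 2307 and 1025 in APOE3, where replicate 5 fell within the APOE2 range. Means were 852 ± 121 (SD, n = 8) and 1563 ± 503 (SD, n = 5), with a log2 fold change of -0.83 (SE 0.16; limma adjusted p = 0.0175).

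Both calls depended on single libraries and on the processing. Fdx1 kept its call in 4 of 13 fits with 1 library left out and in 10 of 15 other fits. Scd1 kept its call in 9 of 13 and in 11 of 15. The exact permutation test of each gene alone gave p = 0.00155 for both. Both genes were picked because they passed in these same libraries, and that p-value is not adjusted for the choice. The call of Fdx1 was lost without any 1 of 9 libraries (APOE2 replicates 1, 2, 3, 5, 7 and 8, APOE3 replicates 3, 4 and 5), with adjusted p between 0.0503 and 0.101 in those fits, while its log2 fold change stayed between 0.47 and 0.64 over all 13. The call of Scd1 was lost without APOE2 replicate 2 or 5 or APOE3 replicate 3 or 4, with adjusted p between 0.0502 and 0.0650. With the lung epithelium markers as a covariate the log2 fold changes were 0.38 for Fdx1 and -0.65 for Scd1 (limma adjusted p = 0.612 and 0.397). With the endothelium markers they were 0.43 and -0.67 (limma adjusted p = 0.929 and 0.879). The levels of both marker sets differed between the groups, so these covariate fits cannot tell genotype apart from marker level. Both calls were also lost without a filter on low values (adjusted p = 0.0982 for Fdx1 and 0.0696 for Scd1) and in limma without trend (0.165 and 0.127). Under the replicate number as a block, Fdx1 was at 0.60 with an adjusted p of 0.127 and Scd1 at -0.93 with one of 0.0301.

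**Figure D4:**
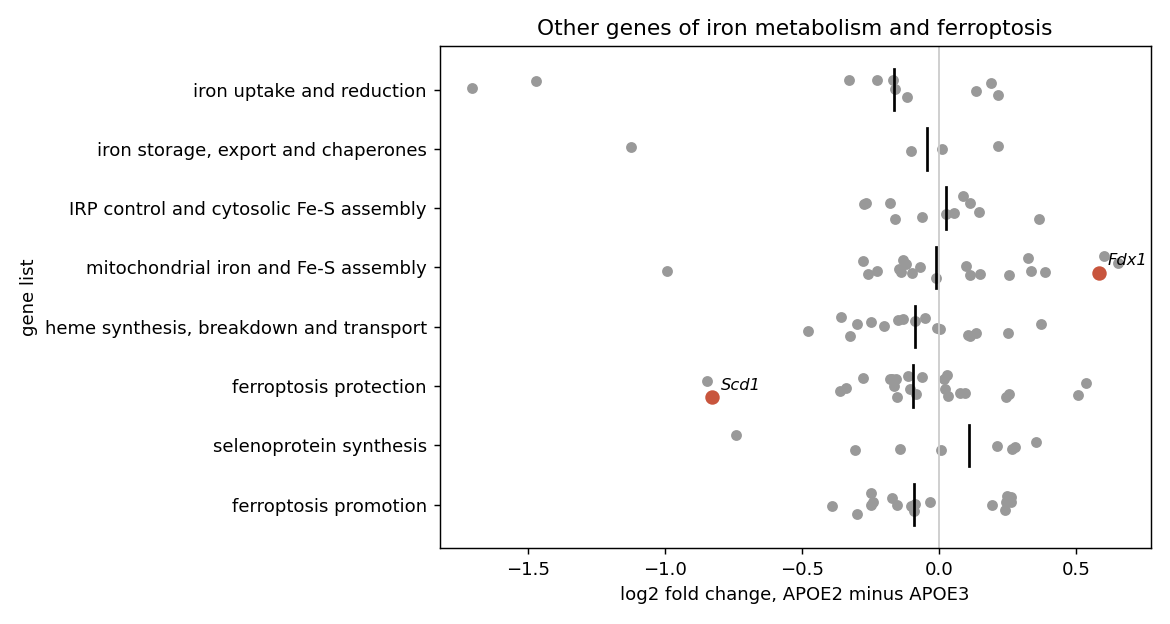
Log2 fold change (x axis, APOE2 minus APOE3) of the 112 other genes tested, 1 point a gene, by list (y axis), with the median of each list as a vertical bar and the genes past the adjusted threshold in red. The list medians lie between -0.16 and 0.11, and Fdx1 and Scd1 are the coloured points.

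In the uptake and reduction list 0 of 10 tested genes passed, and the median was -0.16. Its smallest p-values belonged to Slc39a8 (log2 fold change -1.70, limma adjusted p = 0.380) and Slc39a14 (-0.33, adjusted p = 0.605), zinc transporters that also carry iron, and to Lcn2 (-1.47, adjusted p = 0.383), a siderophore carrier. With the lung epithelium markers as a covariate the value of Slc39a8 turned to 0.45. Slc39a8 and Lcn2 were sparse, with APOE2 means of 8.65 and 9.94 normalised counts. In the storage, export and chaperone list 0 of 4 passed, with Cp, the ferroxidase ceruloplasmin, at -1.12 (adjusted p = 0.307), the chaperone Pcbp1 at 0.21 and Herc2 at -0.10. Among the genes of iron regulatory protein control and cytosolic cluster assembly 0 of 11 passed, with Ciao1 at 0.36, Ciapin1 at -0.18 and Mms19 at -0.26.

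The list of mitochondrial iron and cluster assembly held 21 tested genes, of which Fdx1 passed and 5 had an unadjusted p under 0.05, 4 of them higher in APOE2 (14.2% of all genes tested had such a p). The other genes with the smallest p were Lyrm4, the partner of the cysteine desulfurase (-0.99, limma adjusted p = 0.155), and the cluster transfer factor Bola3 (0.33, adjusted p = 0.161). In the heme list 0 of 17 passed, with the synthesis enzymes Alad at -0.36 and Ppox at -0.48 and the heme oxygenase Hmox1 at -0.33 (adjusted p = 0.373, 0.380 and 0.419). Bola3, like Tfrc, held a match to the hairpin pattern in its 3′ untranslated region.

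Of the ferroptosis protection genes 24 were tested, with Scd1 the only call and 5 at an unadjusted p under 0.05, 2 higher and 3 lower in APOE2, again beside 14.2% of all genes tested. Enzymes of ubiquinone synthesis, the substrate of the Aifm2 product, stood next: Pdss1 at -0.85 (limma adjusted p = 0.134) and Coq2 at 0.51 (adjusted p = 0.171), in opposite directions. Of the 8 genes of selenoprotein synthesis, on which Gpx4 depends, 0 passed, with a median of 0.11. Scly, which recycles selenium, was at 0.27 (adjusted p = 0.277), the elongation factor Eefsec at -0.30 (adjusted p = 0.333) and the selenophosphate synthetase Sephs2 at -0.74 (adjusted p = 0.380). Of 17 ferroptosis promotion genes 0 passed, with the phospholipid remodelling enzyme Lpcat3 at -0.39 (adjusted p = 0.139), Por at 0.26 and Elovl5 at 0.19. The exons of Cp, Pcbp1, Ciapin1, Mms19, Lyrm4, Ppox, Pdss1, Scly, Eefsec, Sephs2 and Lpcat3 overlap a gene on the opposite strand, so their values are uncertain where strand was not used in counting. The overlapping genes had means from 0.21 (Gm17090, over Scly) to 2376 normalised counts (Emg1, over Lpcat3). A130006I12Rik (over Pdss1) and Gm44729 (over Sephs2) had no value here.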

How the data were processed

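The table deposited by the authors gives normalised counts, treated here as a signal, for 22656 genes in 13 libraries. Per the submitters' processing notes, STAR 2.6.0, featureCounts and DESeq2 1.28.1 were used with mm10. The annotation and strand setting are not given in the sources used here. Per the labels' protocols, the QuantSeq forward kit was used, which reads 3′ ends. All values were whole multiples of 1 step per column (tolerance 0.01), which gave whole reads. In APOE2 replicate 2 the step was close to 1 (1.01), and 100% of its values came out whole. Symbols came from GENCODE M21 for 22649 identifiers, and 7 had none. Read totals and floors cover counting error only, since reads carry no molecular identifiers.

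Groups follow the labels. Values were tested as log2(normalised count + 1) for genes with a mean of at least 10, with limma 3.58.1 (R 4.3.3, intensity trend), Benjamini-Hochberg adjustment and a threshold of 0.05. Fold changes of low genes depend on the added 1 and on libraries near 0. That of Ncoa4, 0.78 on this scale, was 1.04 with a pseudocount of 0.5 and 0.28 with 5. In edgeR it was -0.11. Exact permutation tests went through all 1287 splits, and scipy 1.17.1 gave the ranks for Spearman's rho. Copies were found with blastn 2.17.0+. The alternatives were edgeR 4.0.16, DESeq2 1.42.0, other scalings, filters, pseudocounts, covariates, a replicate block and each library left out. Adding the copies to Fth1, Ftl1 and Gpx4 was chosen after seeing the data. The scripts were tested on simulated data. Replicates of a group differed far beyond counting noise (lowest chi-square per gene 14.6), and the numbers of mice given match those of the libraries. No label ties a library to 1 mouse, so p-values measure the spread between these libraries. The members and lists were chosen with earlier results of these data known. Besides the 10 members, the genes named are those past the threshold, the 3 with the smallest p in each list, and the 3 most like Fth1, Tfrc and Gpx4. Genes overlapping others and markers were named where a result touched them.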

Additional observations from a re-analysis of the deposited data

Results flagged for a closer look

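Of 68 screens of single groups for a library far from the others, 4 were met, where chance alone gives 3.4. Fth1 had 18872 normalised counts in APOE2 replicate 8, the lowest of its group, where the next library had 23107. Aco1 had 279 normalised counts in APOE2 replicate 3, the highest of its group, where the next had 203. Aifm2 had 151 normalised counts in APOE2 replicate 6, the highest of its group, where the next had 114. Hmox1, the heme oxygenase that frees iron from heme, had 1139 normalised counts in APOE3 replicate 2, the highest of its group, where the next had 671.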

How the results depend on the processing

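None of the 10 genes passed in any of 28 alternative fits, 13 of which left out 1 library. The count of other pathway genes past the threshold, 2 as reported, was 0 without a filter, with limma without trend, and with the lung epithelium or endothelium marker covariate, and 1 with the replicate block. Leaving out 1 library gave 0 to 3. The count over all genes, 98 as reported (51 higher, 47 lower), was 9 without a filter, 0 without trend, 311 in DESeq2, 43 with the replicate block, 2 and 0 with the lung epithelium and endothelium covariates, and 9 (without APOE3 replicate 3) to 228 (without APOE3 replicate 1) with a library left out. Scaling to equal totals gave 38 higher and 54 lower, and edgeR 61 and 77. Some log2 fold changes, none of them past the threshold, turned sign: Aco1 was -5.24e-05 with equal totals, -0.086 with array weights, and -0.24 and -0.31 with the lung epithelium and endothelium covariates. Slc40a1 was -0.047 in edgeR, -0.055 in DESeq2 and -1.46 with the endothelium covariate, and Ncoa4 -0.11, -0.12 and -0.99. Slc11a2 was -0.082 and -0.13 with both covariates, Slc39a8 0.45 with the first, Tfrc 0.028 and Ireb2 0.16 with the second. With 1 library left out, ranges that crossed 0 were -0.12 to 0.075 (Tfrc), -0.011 to 0.12 (Slc11a2), -0.39 to 0.45 (Slc40a1), -0.050 to 0.12 (Aco1), -0.10 to 0.049 (Ireb2) and -0.31 to 0.10 (Herc2). Those of Ftl1 (0.43 to 0.83, adjusted p 0.0543 to 0.303 in limma) and Gpx4 (0.23 to 0.77, adjusted p 0.205 to 0.693) did not. The cause of these changes was not tested. Marker levels differed between the groups, so the covariate fits cannot tell genotype apart from marker level.

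Replicate numbers did not pair the libraries (correlations of same-numbered libraries -0.063 to 0.014). With the number as a block Ftl1 was 0.86 (limma adjusted p = 0.0740), and no member passed. A minimum mean of 50 gave no value for Slc40a1, Ncoa4, Slc39a8, Lcn2 and Cp. Depth limits Slc40a1, Ncoa4, Slc39a8 and Lcn2, with means of 20.2, 18.3, 14.4 and 16.2 normalised counts.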
